A study of Homo sapiens with 12 samples.

Results

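The genes described here are 10 members of the oxygen-sensing and glycolytic response: the hypoxia-inducible transcription factor subunits HIF1A, EPAS1 and ARNT, their regulators VHL and EGLN3, and the target genes VEGFA, CA9, SLC2A1, LDHA and PDK1. They were a fixed list of genes, and each was given every deposited ATAC-seq summit that lay inside its RefSeq GRCh38 bounds or within 10 kb of them. The rule assigned 49 of the 188019 summits in the list, in 38 intervals, to the 10 genes. In ATAC-seq a transposase cuts open chromatin, and a summit is the position in a peak where most fragments overlap.

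The cells were HT1080, an established human fibrosarcoma line, held in gels of rat tail type I collagen at 0.3 mg/mL (low), 1 mg/mL (medium) or 1.7 mg/mL (high), with 4 libraries each and 12 in all. All 3 groups received the broad matrix metalloproteinase inhibitor GM6001 at 20 µM and migrated for 48 h. The labels name no hypoxia treatment and no oxygen level. The deposited list was pooled over the series, so no value below compares collagen concentrations, none has replicates, and depth per library is unknown. A site open in few cells and a site weakly open in all cells cannot be told apart in it.

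HIF-1α (HIF1A) and HIF-2α (EPAS1) are made continuously, and in oxygenated cells prolyl hydroxylases such as EGLN3 mark them for destruction by the ubiquitin ligase that contains VHL. When oxygen is scarce the α subunits persist, pair with ARNT and bind a short DNA core in their target genes. Those targets raise glucose uptake (SLC2A1), lactate production (LDHA), the block on pyruvate dehydrogenase (PDK1), acid handling (CA9) and vessel growth (VEGFA).

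The promoters below are shown because they span the range from the most to the least open start site and differ in how many binding cores they hold. Each gives the 250 bases before the start (RefSeq, GRCh38.p14, in the direction of transcription), except PDK1, for which the 30 bases before its second listed start are given. Capitals mark the core ACGTG or GCGTG on either strand, so CACGT and CACGC are the same cores read on the other strand. Positions are chr14:61695263-61695512 (plus strand) for HIF1A, chr2:46297157-46297406 (plus) for EPAS1, chr11:18394313-18394562 (plus) for LDHA, chr1:42958869-42959118 (minus) for SLC2A1, chr14:33951075-33951324 (minus) for EGLN3, chr9:35673678-35673927 (plus) for CA9 and chr2:172556060-172556089 (plus) for PDK1.
HIF1A: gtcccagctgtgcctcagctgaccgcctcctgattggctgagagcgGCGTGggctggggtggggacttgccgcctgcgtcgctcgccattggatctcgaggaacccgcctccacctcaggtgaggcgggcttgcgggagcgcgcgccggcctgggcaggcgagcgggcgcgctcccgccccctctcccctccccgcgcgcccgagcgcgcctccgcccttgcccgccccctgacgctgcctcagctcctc
EPAS1: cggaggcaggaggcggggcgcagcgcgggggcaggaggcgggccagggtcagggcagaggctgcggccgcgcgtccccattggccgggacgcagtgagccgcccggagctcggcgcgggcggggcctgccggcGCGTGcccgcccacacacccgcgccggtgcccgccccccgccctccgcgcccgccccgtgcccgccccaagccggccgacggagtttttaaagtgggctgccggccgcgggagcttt
LDHA: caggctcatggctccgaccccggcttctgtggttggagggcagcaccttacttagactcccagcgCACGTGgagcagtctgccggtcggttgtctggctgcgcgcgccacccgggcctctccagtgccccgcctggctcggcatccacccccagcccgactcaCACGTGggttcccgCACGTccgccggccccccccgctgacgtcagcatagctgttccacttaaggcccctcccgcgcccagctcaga
SLC2A1: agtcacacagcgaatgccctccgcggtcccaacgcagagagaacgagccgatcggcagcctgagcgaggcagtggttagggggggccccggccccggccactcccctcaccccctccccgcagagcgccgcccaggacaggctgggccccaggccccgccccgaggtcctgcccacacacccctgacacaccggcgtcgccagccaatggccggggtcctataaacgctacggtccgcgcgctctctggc
EGLN3: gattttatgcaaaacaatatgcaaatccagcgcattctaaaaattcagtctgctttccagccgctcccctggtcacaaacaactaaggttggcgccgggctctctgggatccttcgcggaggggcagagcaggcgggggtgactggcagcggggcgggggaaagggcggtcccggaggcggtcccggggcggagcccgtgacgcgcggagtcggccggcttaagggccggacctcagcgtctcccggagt
CA9: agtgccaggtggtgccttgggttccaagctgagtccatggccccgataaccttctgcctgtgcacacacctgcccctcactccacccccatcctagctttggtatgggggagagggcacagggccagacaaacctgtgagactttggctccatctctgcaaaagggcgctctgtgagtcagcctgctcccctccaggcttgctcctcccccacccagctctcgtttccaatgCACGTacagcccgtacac
PDK1: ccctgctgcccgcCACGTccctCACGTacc

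All 10 genes had at least 1 summit in the gene or within 10 kb, where 89.8% of 20037 protein-coding genes did. A summit also lay within 1000 bp of a start of all 8 members with a start in the promoter table, against 67.7% of the 15843 protein-coding genes with one, and within 1000 bp of the first base of VHL and VEGFA. VHL and VEGFA, both plus-strand genes, had no entry in that table, and the first base of the gene table stood in for their starts. Both member counts lay where most genes lie and nothing particular to the members is read from them.

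Each summit is described by a pair of measures. Enrichment is the authors' fold of fragments over the local background, and pileup is the number of overlapping fragments, recovered here from their enrichment and p-value. The sources used here do not state whether whole fragments or single reads were piled up, and the unit is called fragments throughout. The 95% intervals given are exact Poisson intervals on the pileup with the background held fixed, and cover counting error only. They are too narrow as a measure of biological spread, and PCR copies are not independent molecules. The median start-site enrichment was 13.0 over the 10 members and 12.3 over the 10718 coding genes with a start summit. The median start-site pileup was 1319 fragments over the members and 818 over the same coding genes. On enrichment 6 of the 10 members lay above the coding-gene median, and on pileup 7 did.

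Start-site enrichment ran from 17.8 at HIF1A to 2.06 at CA9. In descending order the members were HIF1A, ARNT, VHL, PDK1, SLC2A1, EPAS1, LDHA, EGLN3, VEGFA and CA9. Counting intervals of neighbours in that order overlapped except at 3 steps: between HIF1A and ARNT, between EPAS1 and LDHA, and between VEGFA and CA9. On enrichment the 3 transcription factor subunits thus stood at or above the coding-gene median. The regulators lay on both sides of it (VHL above, EGLN3 below), and the target genes were spread from above it to far below it. The order differed on pileup. There SLC2A1 (2056 fragments), LDHA (1864) and PDK1 (1547) lay above VHL (1091) and EPAS1 (878), though below HIF1A (2995) and ARNT (2326). VEGFA (770), EGLN3 (191) and CA9 (61) lay below the coding-gene median pileup of 818.

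**Figure D1:**
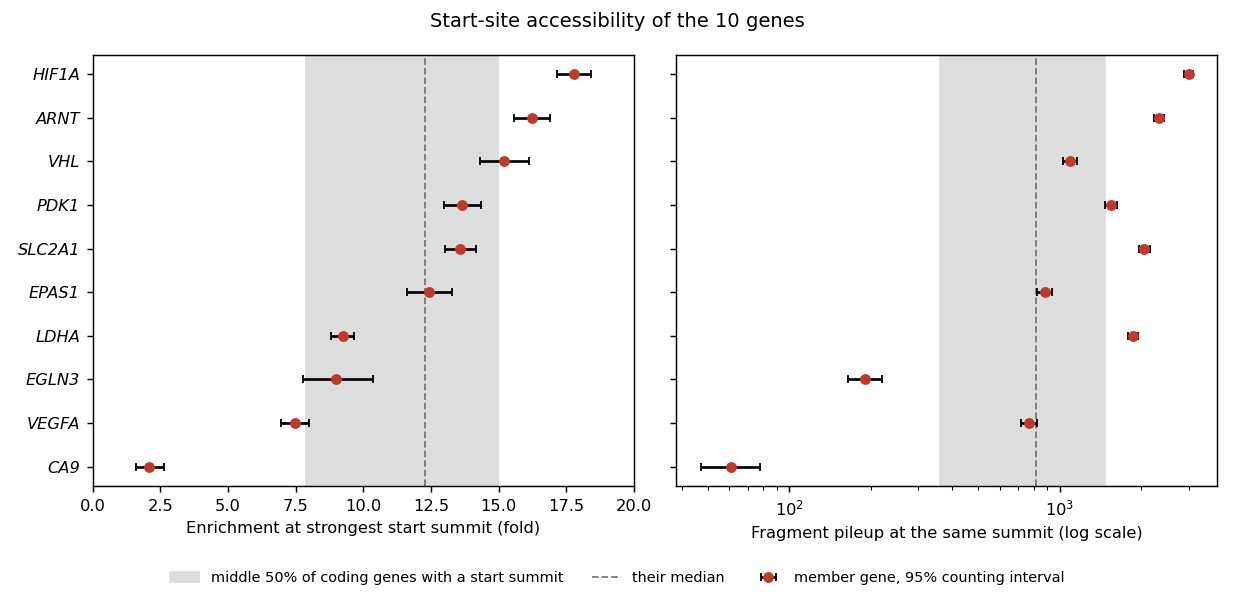
Enrichment (left, fold) and fragment pileup (right, log scale) at the strongest summit within 1000 bp of a start of each of the 10 genes, with 95% counting intervals as bars, over the middle 50% (grey) and median (dashed) of 10718 coding genes with a start summit. HIF1A is highest on both measures (17.8 and 2995 fragments) and CA9 lowest on both (2.06 and 61 fragments), while LDHA is below the median in enrichment and above it in pileup.

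Among the α subunits, HIF1A had the most open start. Its summit lay 160 bp upstream of the first start in the interval chr14:61695006-61696165, with an enrichment of 17.8 (17.1 to 18.4) and a pileup of 2995 fragments (2889 to 3104). The enrichment was above that of 96.2% of coding genes with a start summit. The start of the antisense RNA gene HIF1A-AS1 lay 470 bp from the same summit, so the signal cannot be assigned to 1 of the 2 transcripts. A second listed HIF1A start, at base 61697712 on chromosome 14, had no summit within 1000 bp, and the nearest was 2359 bp away. The only other HIF1A summit lay 7163 bp beyond the end of the gene, with an enrichment of 14.4 (13.3 to 15.5) and a pileup of 659. It was nearer to the start of SNAPC1, at 6999 bp, than to that of HIF1A.

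EPAS1, which encodes HIF-2α, differed from HIF1A in where its signal lay. Its start summit, 203 bp upstream in chr2:46296784-46297787, had an enrichment of 12.4 (11.6 to 13.3) and 878 fragments (821 to 938), and neither interval reached that of HIF1A. A summit 18054 bp into the gene had an enrichment of 13.1 (12.4 to 13.8) and 1301 fragments (1231 to 1374). The counting intervals of the 2 sites overlapped in enrichment, and in pileup they did not, with the site inside the gene higher. The remaining summit, at 32585 bp, was weaker, with an enrichment of 5.40 and 205 fragments. Both internal sites were nearer to the EPAS1 start than to any other protein-coding start.

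ARNT, the constitutive partner of both α subunits, had a start summit of 16.2 (15.6 to 16.9) with 2326 fragments, 160 bp upstream in chr1:150876213-150877144. Its other 2 summits, at 55372 and 63331 bp into the gene, had enrichments of 3.10 and 6.66 with 65 and 142 fragments, and both were nearer to the start of CTSK than to that of ARNT. SNAPC1, CTSK and, below, LDHC and RAPGEF4 were named after their distances were seen.

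VHL, the substrate-recognition subunit of the ligase that removes the α subunits, had its main summit 56 bp after the first base of the gene, in chr3:10141519-10142390. The enrichment there was 15.2 (14.3 to 16.1) and the pileup 1091. Measured from the nearest of each gene's starts, VHL was the only member whose strongest start summit lay after the start. In all, 9 of 10 lay upstream, against 72.3% of coding genes with a start summit. The PDK1 summit was upstream of its second listed start but 636 bp after its first. For VHL and VEGFA the side depends on the first base of the gene that stood in for the start. The 2 further VHL summits shared 1 interval more than 5 kb upstream and had enrichments of 2.26 and 2.10 with 53 and 51 fragments.

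EGLN3, the prolyl hydroxylase whose own gene is induced by hypoxia, had few fragments at its start. The summit, 48 bp upstream in chr14:33950702-33951272, had 191 fragments (165 to 220) and an enrichment of 9.01 (7.78 to 10.4). Among coding genes with a start summit, it lay above only 15.6% in pileup and above 30.1% in enrichment. Its local background equalled the lowest value in the list, 20.3 fragments, which is called the genome-wide background; 93.0% of coding start summits, and those of the other 9 members, stood on a raised background. A second summit, 8926 bp beyond the gene end, had an enrichment of 5.02 and 106 fragments, also on the genome-wide background.

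LDHA, which converts pyruvate to lactate, was open at both of its listed starts. The summit 109 bp upstream of the first start had an enrichment of 9.23 (8.81 to 9.66) and 1864 fragments (1780 to 1951). The summit 172 bp upstream of the second start, in a separate interval at chr11:18395860-18396520, had an enrichment of 8.66 (8.26 to 9.08) and 1736 fragments (1655 to 1820). The first site was slightly higher on both measures, the counting intervals overlapped on both, and the difference was not tested. The local background was 201 fragments at the first and 199.6 at the second, the highest of all member summits. Among coding genes with a start summit, the first site lay above 83.3% in pileup but above only 31.3% in enrichment. A weaker summit downstream (4.76, 168 fragments) was nearer to the start of LDHC, the testis lactate dehydrogenase gene, at 1737 bp.

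SLC2A1, which encodes the glucose transporter GLUT1, held 13 of the 49 summits, the largest number among the members. As many or more were found at 5.22% of protein-coding genes, whose median was 3, and the median member also had 3. The start summit, 125 bp upstream in chr1:42958036-42959315, had an enrichment of 13.6 (13.0 to 14.2) and 2056 fragments, and the divergent noncoding gene SLC2A1-DT started 56 bp from it. Next in enrichment came a summit 958 bp beyond the gene end, at 11.3 (10.5 to 12.1) with 734 fragments, and a summit 8433 bp upstream, at 9.06 (8.08 to 10.1) with 313. Within the gene, 2 intervals at about 17 and 22 kb from the start held 4 summits with enrichments of 3.20 to 5.73 and pileups of 288 to 584. The remaining 6 had enrichments of 1.76 to 3.13 and pileups of 40 to 101. For all 13 summits the nearest protein-coding start was that of SLC2A1.

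PDK1, the kinase that inactivates pyruvate dehydrogenase, had its start summit at 13.6 (13.0 to 14.3) with 1547 fragments, 81 bp upstream of its second listed start and 636 bp after its first. The interval, chr2:172555564-172556730, did not reach the first listed start. The antisense gene PDK1-AS1 started 455 bp from the same summit. The RefSeq bounds of PDK1 span 168940 bp, and 6 more summits lay deep inside them, between 84576 and 155447 bp from the first start. The highest of these, in chr2:172692922-172693584, had an enrichment of 16.0 (15.1 to 17.0), above that of the start with no overlap of the counting intervals, although its pileup was lower, at 1044 (982 to 1109). The last, at 155447 bp, had an enrichment of 13.4 (12.4 to 14.6) and 581 fragments, and the other 4 had 6.71 to 10.0 with 160 to 311 fragments. Of the 6, the 5 farthest in were nearer to the start of RAPGEF4, the next gene, than to that of PDK1. When only summits with PDK1 as the nearest start were used, its strongest enrichment was 13.6.

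VEGFA, the secreted growth factor for blood vessels, had a broad but moderate site. Its interval, chr6:43769591-43771939, was 2349 bp long, the longest among the members against a median of 662 bp. It held 3 summits in a row: 157 bp upstream with an enrichment of 7.46 (6.94 to 8.003) and 770 fragments, 469 bp after the start with 3.29 and 343, and 1282 bp after it with 1.45 and 151. Signal was therefore highest before the start and fell off into the gene. The enrichment lay above 23.4% of coding genes with a start summit and the pileup above 47.7%, on a local background of 102 fragments. Another 2 summits, in the gene at 11162 bp and 1261 bp beyond its end, had enrichments of 1.99 and 2.10 with 62 and 59 fragments.

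CA9, a membrane carbonic anhydrase widely used as a marker of hypoxic tumour cells, had the least open start of the 10. The strongest summit lay 19 bp upstream in chr9:35673477-35674034, with 61 fragments (47 to 78), a local background of 29.1 and an enrichment of 2.06 (1.58 to 2.64). A shoulder 314 bp upstream had 46 fragments and an enrichment of 1.56, with a -log10 q of 1.41 in the authors' deposited table, where the lowest of any line was 1.30. Only 4.22% of the 10718 coding genes with a start summit had one this weak or weaker. A further interval at about 6 to 7 kb into the gene held 3 summits of 1.66 to 1.83 with 76 to 83 fragments.

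The strong sites in the CA9 window belonged to its neighbours by position. The summit 8684 bp upstream (11.2, 10.4 to 12.1; 624 fragments) lay 49 bp from the start of ARHGEF39. Beyond the gene end, a summit of 8.93 (8.40 to 9.48) with 1067 fragments lay 60 bp from a start of TPM2, which encodes a tropomyosin, and another of 3.42 with 401 fragments lay 888 bp from it. CA9 was therefore a weakly accessible gene between 2 open promoters, and its strongest enrichment fell from 11.2 to 2.06 once summits nearer to another coding start were left out.

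**Figure D2:**
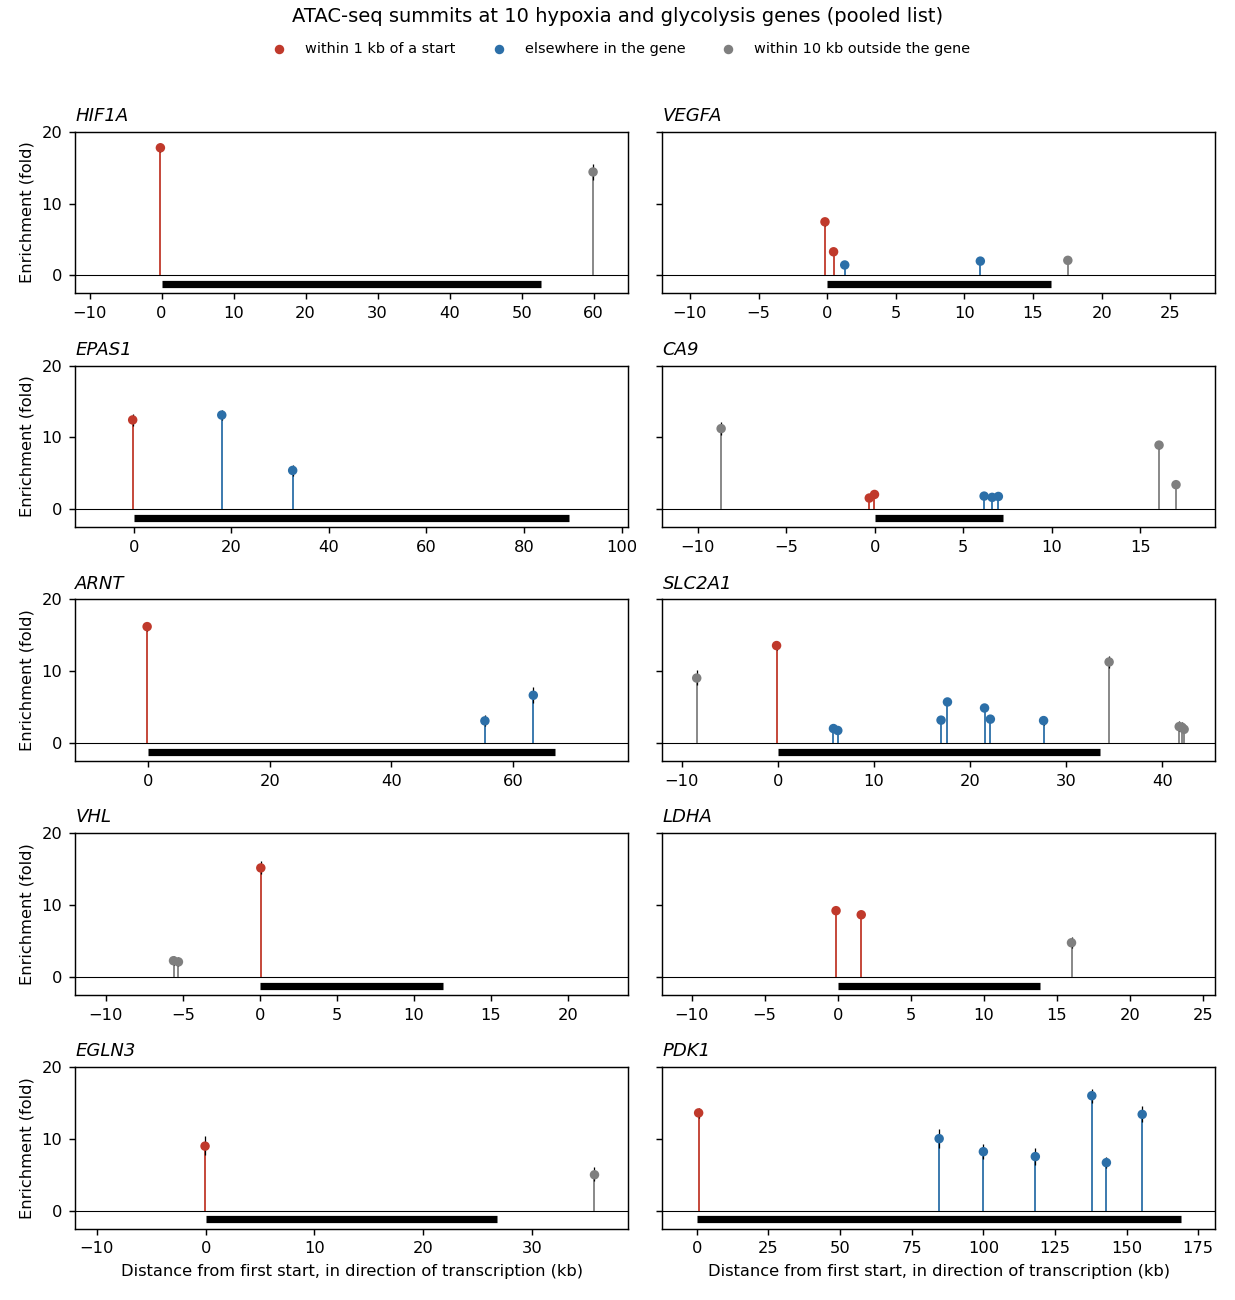
Enrichment (fold, with 95% counting intervals) of all 49 summits against their distance from the first start of each gene in the direction of transcription (kb); the black bar is the gene, and colours mark summits near a start (red), elsewhere in the gene (blue) and outside it (grey). At ARNT, VHL, EGLN3 and VEGFA a single red summit stands well above the rest, LDHA has 2 red summits of like height, SLC2A1 and PDK1 carry several further sites, and at CA9 both red summits are below 2.1 while the grey flanking ones reach 11.2.

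Across the 10 genes, 13 summits lay within 1000 bp of a start, 22 elsewhere in a gene and 14 outside it. Median enrichment was 9.23 at the start summits and 4.09 at the other 36, and median pileup was 1091 and 164 fragments. At EPAS1, PDK1 and CA9 the strongest enrichment lay away from the start, that is at 3 of 10 members, where 33.8% of coding genes with a start summit showed the same. Of the 49 summits, 37 had the member as their nearest protein-coding start and 12 had another gene. Just inside the 10 kb limit lay the one near TPM2, 9785 bp from CA9 (enrichment 3.42, 401 fragments), and just outside it lay a summit 10652 bp from LDHA (13.1, 3141 fragments).

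The promoter sequences were next set beside these values. The 11 member promoters with a sequence belonged to 8 members, with 2 starts each for HIF1A, LDHA and PDK1. VHL and VEGFA had no sequence and were not scanned. In the 300 bases from 250 before to 50 after the start, the core was present in 7 of 11 member promoters, against 54.7% of 22199 protein-coding promoters. ACGTG alone was in 3 of 11 (23.0% of all) and GCGTG alone in 5 of 11 (43.0%), counts in which a promoter with both is counted for each. The 3 promoters with ACGTG were those of CA9, LDHA at its first start and PDK1 at its second, and their enrichments were 2.06, 9.23 and 13.6. A promoter with this core was thus found at the least open start and at starts with 1864 and 1547 fragments. A letter match is a description and not evidence of a bound site.

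In CA9 the single core spanned positions -18 to -14, counted from -1 as the base before the start, and the summit fell at -19, next to it. The LDHA promoter held 3 ACGTG sites upstream, at -185 to -180, -87 to -82 and -73 to -69, around its summit at -109, and a GCGTG site at 39 to 43 after the start. PDK1 had cores at -17 to -13 and -8 to -4, with the summit at -81. The single GCGTG of HIF1A, at -204 to -200, and that of EPAS1, at -117 to -113, lay on opposite sides of their summits at -160 and -203. SLC2A1 had its only core after the start, and no core was found in the windows of ARNT and EGLN3.

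Other promoter elements were counted in the same windows. The GC box GGGCGG, on either strand, was in 6 of 11 member promoters (56.3% of all). These included 7 copies at EPAS1, 7 at the second start of PDK1 and 3 each at EGLN3 and the first HIF1A start. It was absent from CA9, ARNT, the first LDHA start, the first PDK1 start and the second HIF1A start. CCAAT was in 7 of 11 (34.7% of all), and TATAAA in 3 of 11 (9.47%): SLC2A1, the first PDK1 start and the second HIF1A start. The TATAAA match lay at -31 to -26 in SLC2A1 and at -210 to -205 in PDK1. Those of HIF1A lay at -250 to -245 and at 36 to 41 after the start. In the member promoters no match to these 3 motifs shared a base with a core.

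CpG content of the promoters was then compared with whether they were open. Over all 22199 coding promoters, a summit lay within 1000 bp of 18.3% of starts in the group with 0 to 6 CpG dinucleotides, 60.4% with 7 to 20, 83.5% with 21 to 30 and 85.7% with 31 to 69. The median enrichment in these groups, whose bounds are the quartiles of CpG number, was 5.04, 10.6, 13.1 and 12.3. The CA9 window held 7 CpG despite a GC content of 62%, and the second HIF1A start, which had no summit, held 3. The first PDK1 start held 6, and the summit assigned to it was that of the second start, which held 38. The other 8 member promoters held 25 to 47 CpG, with enrichments of 8.66 to 17.8. EPAS1, the richest with 47, was not the most open. Among 1146 coding promoters with a summit and at most as many CpG as CA9, the median enrichment was 5.20 with quartiles of 2.59 and 9.10, so CA9 at 2.06 also lay below the lower quartile of promoters like it in this respect. Whether CpG content had a part in these values was not tested.

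**Figure D3:**
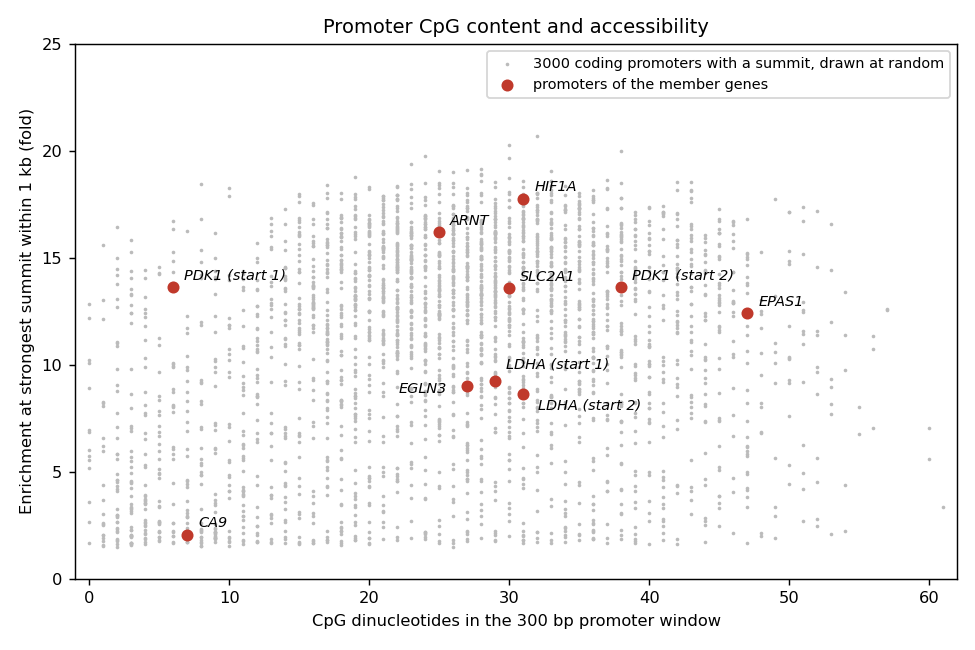
CpG dinucleotides in the 300 bp promoter window (x) against enrichment at the strongest summit within 1000 bp (y, fold) for the 10 member promoters with a summit (red) and 3000 coding promoters drawn at random from those with a summit (grey). CA9 lies at the lower left with 7 CpG and 2.06, and the PDK1 point at 6 CpG shows the same summit as the one at 38.

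The rest of the pathway was described from 4 gene lists. Of 12 further genes of oxygen sensing, 10 had a listed start and all 10 had a summit there, where 67.7% of coding genes with a listed start did. Their medians were 15.3 in enrichment and 1007 fragments in pileup, against 12.3 and 818 for coding genes with a start summit. Highest in enrichment was HIF1AN, the asparaginyl hydroxylase that blocks HIF-1α activity, at 16.6 with 910 fragments. The lowest was HIF3A, a divergent α subunit, at 3.70 with 78 fragments. The other prolyl hydroxylases, EGLN1 at 15.9 with 1633 fragments and EGLN2 at 15.9 with 2632, both exceeded EGLN3 at 9.01 with 191.

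Of 18 glycolytic enzymes, 17 had a summit at a listed start (against 67.7% of coding genes). Their median enrichment was 8.71, below the coding-gene median of 12.3. Their median pileup was 998 fragments, above the coding-gene median of 818. Enrichment reached from 3.59 at PFKP, the platelet-type phosphofructokinase, to 19.3 at PGK1, which makes ATP from bisphosphoglycerate. PGAM1 had no summit within 1000 bp of its listed start, and the nearest was 1663 bp away. The strongest summit in its window had an enrichment of 13.3 with 1726 fragments. LDHB, which encodes the other main lactate dehydrogenase subunit, had 16.1 with 998 fragments, against 9.23 with 1864 fragments for LDHA: higher in enrichment and lower in pileup.

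In the list of transport, acid export and pyruvate dehydrogenase genes, 4 of 6 with a listed start had a summit there (against 67.7% of coding genes). Their medians were 12.5 in enrichment and 580.5 fragments in pileup, against 12.3 and 818 for coding genes with a start summit. In enrichment PDHA1, a subunit of the enzyme that PDK1 inhibits, was highest at 18.8 and SLC16A3, the lactate exporter MCT4, lowest at 2.81 with 449 fragments. Among the kinases related to PDK1, PDK3 had 18.6 and PDK2 6.41, and PDK4 had no summit in its whole window, the nearest lying 12444 bp from its start. CA12, a membrane carbonic anhydrase related to CA9, also had no summit within 1000 bp of its start, with the nearest at 2911 bp. The strongest summit in the CA12 window had an enrichment of 14.0 with 1206 fragments.

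Of 12 other hypoxia-induced genes with a listed start, 9 had a summit there (against 67.7% of coding genes). Their median enrichment was 10.5, below the coding-gene median of 12.3. Their median pileup was 2022 fragments, above the coding-gene median of 818. Enrichment ran from 3.05 at KDR, a VEGF receptor, to 17.4 at P4HA1, a collagen prolyl hydroxylase. The 3 without one were ADM, ANGPTL4 and FLT1, whose nearest summits lay 3027, 1975 and 45630 bp away. The strongest summits in their windows had enrichments of 10.15, 15.81 and 11.96 with 461, 1583 and 371 fragments. The 4 lists overlapped in range with each other and with the members. No test between them was run, and nothing is read from their counts of start summits.

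**Figure D4:**
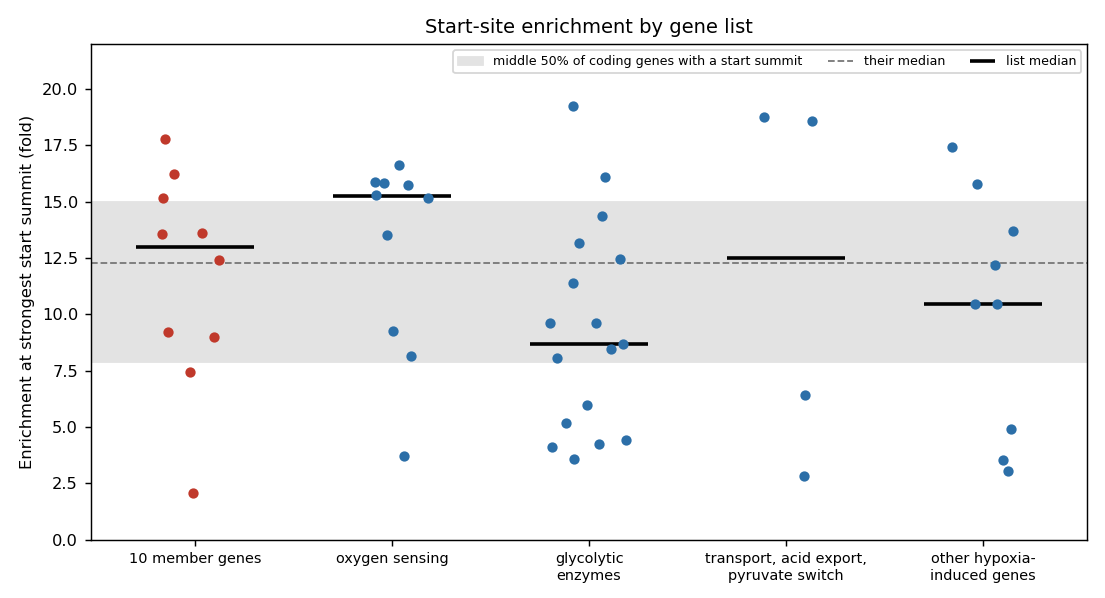
Enrichment (fold) at the strongest start summit of each gene with one, for the 10 members (red) and 4 pathway lists (blue), with list medians as black bars over the middle 50% (grey) and median (dashed) of coding genes with a start summit. The oxygen-sensing list has the highest median (15.3) and the glycolytic enzymes the lowest (8.71), and single genes in every list lie on both sides of 12.3. Pileup is not drawn, and on it the glycolytic median (998 fragments) lay above that of coding genes with a start summit (818).

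Markers of cell type were counted in the same way. Of 6 mesenchymal markers, the 5 with a listed start (VIM, FN1, CDH2, CD44 and SPARC) had a start summit, with enrichments of 6.64 to 15.1, against 67.7% of coding genes. THY1, which had no listed start, reached 4.04 with 102 fragments in its window. Of 8 other-lineage markers, PTPRC and ALB had a listed start, and neither had a start summit. In the wider window 6 of the 8 had a summit, where 89.8% of coding genes did. The strongest reached 16.0 with 984 fragments at PECAM1, and ALB and HBB had none. Counts this small do not settle the cell type, which is taken from the labels.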

How the data were processed

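The series comprised 12 ATAC-seq libraries of HT1080 cells, and 1 pooled peak list in narrowPeak layout was analysed. The submitters' processing notes name fastp 0.20.0, Bowtie2 2.4.3, deepTools 3.5.0, SAMtools and MACS2 2.2.7.1 and the build hg38, without role or order; read filters, duplicate handling and pooling steps are not given in the sources used here. The deposited enrichment was taken as a ratio (fold over local background), the deposited p- and q-values as −log10, and the deposited score was 10 times the −log10 q, truncated, in 99.8% of lines. The deposited summit and interval positions are in bp.

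Pileup and background were solved from enrichment, taken as (pileup + 1)/(background + 1), and a Poisson upper tail, a model tested on the values: 99.96% of 188019 lines gave a whole pileup within 0.05. On simulated data 99.98% of 5000 pileups were recovered. A background over the lowest one by more than 0.2% was called raised.

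Genes came from RefSeq GRCh38.p14 and starts from its promoter table, which held 8 of the 10 members. For nearest starts, coding genes without an entry took both ends. Named were all members, the highest, the lowest and every gene without a start summit in each list, and coding neighbours with a start within 1000 bp of a summit; EGLN1, EGLN2, LDHB, PDK2 and PDK3 were named in addition after their values were seen, as close relatives of members, and so were noncoding neighbours. Members and lists were chosen with earlier results of these data known. No test was run. Python 3.11.15, NumPy 2.4.6, pandas 2.3.3, SciPy 1.17.1 and Matplotlib 3.10.9 were used.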

Additional observations from a re-analysis of the deposited data

How the results depend on the processing

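The pooled list has no column for a library, so depth, replicate spread and the effect of any 1 library are unknown. No paired analysis was possible because no result comes from a comparison of groups and no column carries a replicate number; leaving out replicates had no input either. The 49 summits fell to 26 with the gene body alone and to 23 with 10 kb either side of each start, which was added once the data had been seen, as were all alternatives for the median start enrichment. With the gene body alone the median strongest enrichment fell from 13.3 to 7.66, and 2 genes had no summit, since start summits lie just outside the gene bounds. The other 35 of 38 summary alternatives stayed within 1.5 times the count or within the binomial interval of the median concerned. For the median strongest enrichment that interval was 9.01 to 16.2. At a −log10 q of at least 10, 34 summits were left and 9 of 10 members had a start summit; CA9 was the one without. Of 98 values for single genes, 13 left their counting interval, among them CA9 (11.2, from 1.83 with the gene body alone to 13.4 with 25 kb), LDHA (9.23, 13.1 with 25 kb) and PDK1 (16.0, 13.6 by pileup or nearest start).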
